A study of Mus musculus with 17 samples.

Results

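Collagen genes were followed in mouse lung after allergen exposure with and without an antibody against RGMb. They are the genes whose array symbol has the form Col, a type number, the letter a and a chain number, and this rule uses the symbol and no measured value. The name pattern found 44 genes among the 19751 genes measured by probe sets with 1 gene symbol. They fall into 9 structural families. Lung RNA of 17 Balb/c mice was measured on Affymetrix Mouse Gene 1.0 ST arrays, with 1 array per mouse. The anti-RGMb group (6 mice) was sensitized and challenged with ovalbumin and received a monoclonal antibody against RGMb, a membrane-anchored co-receptor for bone morphogenetic proteins that also binds neogenin. The isotype group (5 mice) was sensitized and challenged with ovalbumin and received an isotype antibody. The saline group (6 mice) was given saline at both steps, and the labels name no antibody for it. The design text divides the mice into 2 replicate sets, called experiments here: 3 of each group in experiment 1, and 3 anti-RGMb, 2 isotype and 3 saline mice in experiment 2. Titles numbered 1-2, 2-2 and 3-2 were read as the second set, whose group sizes they match, and as mice other than those of the first. Age, sex, doses and the day of collection are not given in the sources used here. An isotype minus saline difference covers the allergen and the isotype antibody together. No group received anti-RGMb without ovalbumin.

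Collagens are secreted or membrane-bound proteins in which alpha chains wind into a triple helix, and each alpha chain has its own gene. Fibrillar collagens I, III and V build the fibers that give airways and vessels their tensile strength. Collagen IV forms the sheet-like network of basement membranes, and its Col4a3, Col4a4 and Col4a5 chains join into the network found in the thin wall between alveolus and capillary. Collagen VI makes beaded filaments around cells. Fibril-associated collagens, such as XII and XIV, sit on the surface of fibers. In lung, fibroblasts are the main source of fibrillar collagen, while alveolar type 1 cells and endothelium contribute to basement membranes, and added collagen under the airway lining is a known part of airway remodeling in asthma.

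Values are given as relative levels, the log2 intensity of a mouse minus the saline mean of its own experiment, since the array medians were 120.5 to 124.8 in experiment 1 and 362.1 to 386.2 in experiment 2. All 10 alveolar type 1, all 10 alveolar type 2 and all 12 endothelial markers lay above the median gene in saline mice of both experiments, as did 1 of 10 chondrocyte markers. So did 12 of 15 fibroblast, 10 of 12 smooth muscle and pericyte and all 10 leukocyte markers. The counts were 7 of 9 for mesothelial, 6 of 10 for heart muscle and 1 of 8 for airway basal cell markers. In 2 arrays the dimmer 50% of genes stood more than 0.1 log2 units from the saline mean: anti-RGMb mouse 3-2 with a median of 0.168 and isotype mouse 2-2 with a median of -0.137. The median over the collagen genes was 0.343 in anti-RGMb mouse 3-2 and -0.276 in isotype mouse 2-2, against -0.077 to 0.174 in the other 15 mice. In a bulk lung sample, fewer cells of a type and less RNA per cell cannot be told apart.

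The isotype and saline groups were compared to see which collagen genes differed after ovalbumin under the control antibody. Some fibrillar chains (Col1a1, Col1a2, Col3a1 and Col5a2) and beaded filament chains (Col6a1, Col6a2 and Col6a5) were higher, and the alveolar basement membrane chains Col4a3, Col4a4 and Col4a5 were lower, in isotype lungs. Of 44 collagen genes, 9 rose, 6 fell and 29 did not pass the test (limma, with a threshold of 0.05 on the p-value after Benjamini-Hochberg adjustment across every gene on the arrays). Over all genes 35.6% passed, with 14.6% higher and 21.0% lower, so the share of collagen genes past the threshold (15 of 44) was near the background. The median difference was -0.02 log2 units over the collagen genes and -0.04 over all genes. All 15 had the same sign in both experiments, but both experiments entered the fit that picked these genes, so this is no separate evidence. For 13 of the 15 the isotype and saline mice did not overlap. The mice of these groups did not overlap for 64.9% of the 7034 genes of the whole array past the same threshold.

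**Figure D1:**
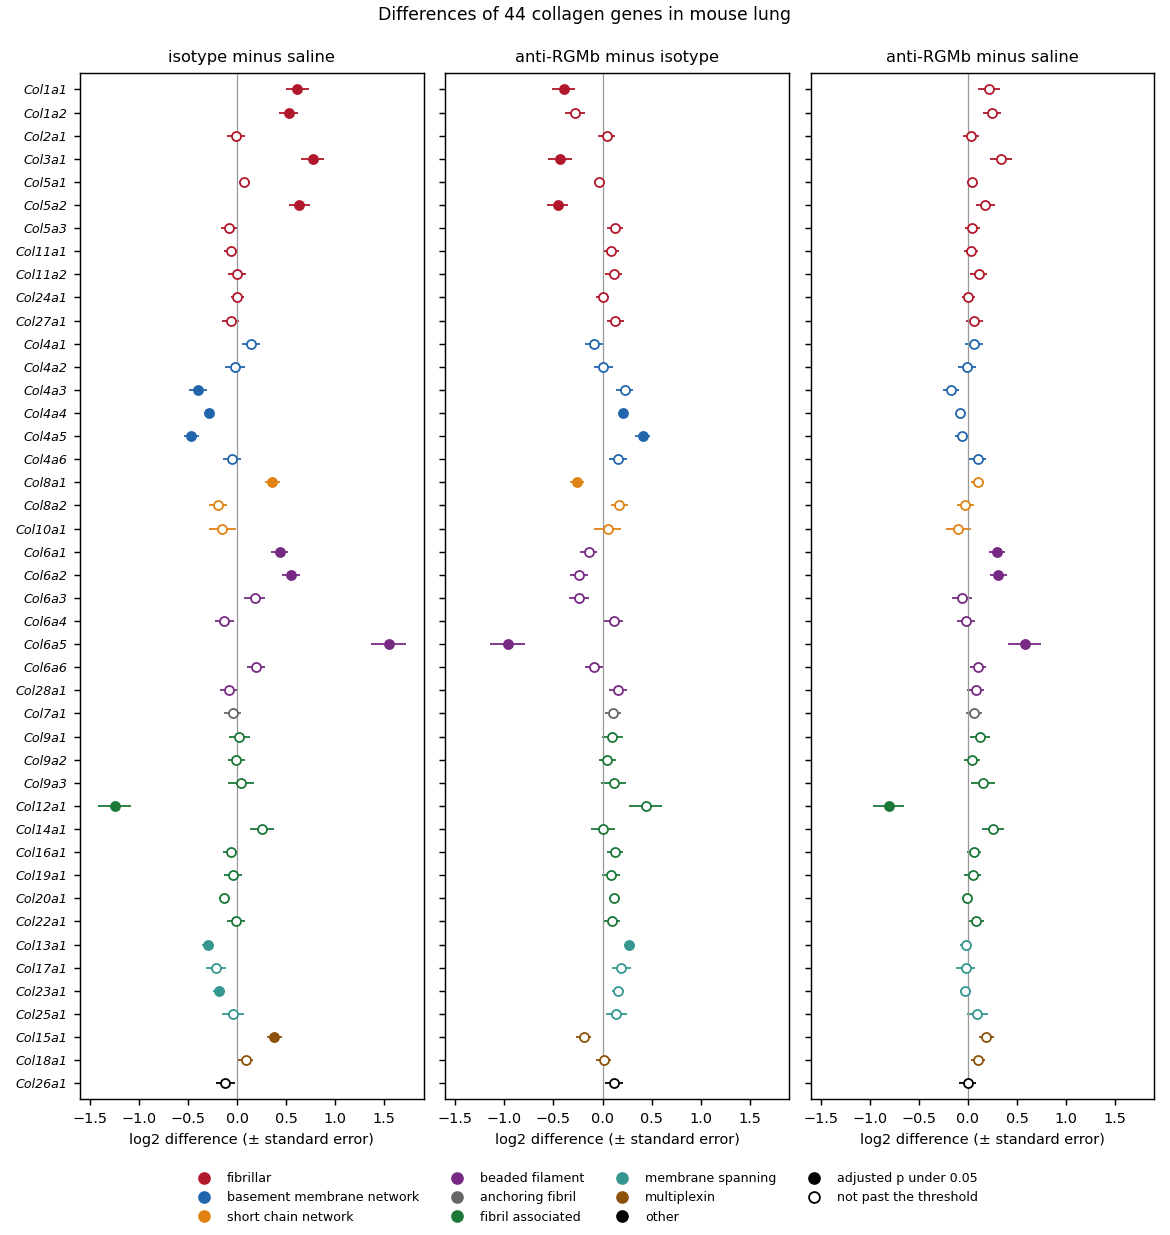
The log2 difference (horizontal axis, with its standard error) of each of the 44 collagen genes is plotted in 3 comparisons, grouped and coloured by family, with filled points past an adjusted p of 0.05. Col6a5 (1.54) and Col12a1 (-1.25) lie farthest from 0 in isotype minus saline, and most points of the other comparisons lie nearer to 0.

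Among the 11 fibrillar genes, Col1a1, Col1a2, Col3a1 and Col5a2 rose in isotype lungs and the other 7 did not pass the test. Col3a1, whose product forms the thin fibers of distensible tissue, had relative levels of 0.89, 0.86, 0.57, 0.65 and 0.89 in the 5 isotype mice. In the 6 saline mice they were -0.49 at the lowest, 0.06 at the median and 0.29 at the highest. Every isotype mouse was above every saline mouse, and the difference was 0.77 ± 0.12 log2 units (standard error, n = 5 isotype and 6 saline mice, adjusted p = 4.61e-05). Both chains of collagen I, the main fiber collagen, moved together. Col1a1 had relative levels of 0.74, 0.74, 0.29, 0.48 and 0.79 in isotype mice and of -0.30 to 0.24, with a median of 0.00, in saline mice. Col1a2 had 0.58, 0.63, 0.33, 0.43 and 0.67 in isotype mice and -0.38 to 0.22, with a median of 0.03, in saline mice. Neither chain's groups overlapped, and the differences were 0.61 ± 0.12 for Col1a1 (adjusted p = 0.00046) and 0.53 ± 0.10 for Col1a2 (adjusted p = 0.000337). Saline mouse 1 gave the lowest saline value of Col1a1, Col1a2 and Col3a1. All 3 rises passed without it, and over all single-mouse omissions the Col3a1 difference was 0.66 to 0.84.

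Collagen V mixes with collagen I and is needed to start its fibers. Its chains did not move alike. Col5a2 had relative levels of 0.78, 0.69, 0.45, 0.54 and 0.72 in isotype mice and of -0.45 to 0.27, with a median of 0.04, in saline mice. The groups did not overlap, and the difference was 0.64 ± 0.10 (limma, adjusted p = 9.94e-05). Col5a1 lay at 0.11, 0.01, 0.01, 0.16 and 0.05 in isotype mice, inside or just above the saline range of -0.13 to 0.07 (difference 0.07 ± 0.06, adjusted p = 0.375). Col5a3 lay at 0.03, -0.06, 0.03, 0.00 and -0.40 in isotype mice, against -0.08 to 0.13 in saline mice (difference -0.08 ± 0.08, adjusted p = 0.504). The remaining fibrillar genes are mostly those of cartilage or of low-abundance fibers. Their differences were -0.01 for Col2a1, -0.06 for Col11a1, -0.00 for Col11a2, 0.00 for Col24a1 and -0.07 for Col27a1, and none passed the test.

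Collagen VI gave the largest rise among the collagen genes. Col6a5, an alternative to Col6a3 in the collagen VI trimer, had relative levels of 2.04, 1.40, 0.88, 1.43 and 1.87 in isotype mice. Its saline levels were -0.25 to 0.29 with a median of -0.01, so the lowest isotype mouse was well above the highest saline mouse. The difference was 1.54 ± 0.18 log2 units (limma, adjusted p = 2.01e-06). A second, dimmer Col6a5 probe set, left out of the fit, averaged 2.84 in isotype mice, with a range of 2.10 to 3.76, and ran from -0.22 to 0.18 in saline mice.

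The obligatory chains of collagen VI also rose. Col6a1 had 0.47, 0.40, 0.43, 0.32 and 0.55 in isotype mice and -0.28 to 0.25, with a median of 0.02, in saline mice. Col6a2 had 0.60, 0.48, 0.54, 0.45 and 0.63 in isotype mice and -0.26 to 0.20, with a median of 0.02, in saline mice. Both genes separated the groups without overlap, with differences of 0.44 ± 0.09 for Col6a1 (adjusted p = 0.00052) and 0.55 ± 0.09 for Col6a2 (adjusted p = 9.32e-05). Col6a3, the usual partner of both, did not pass the test: it had 0.27, 0.05, 0.14, 0.04 and 0.35 in isotype mice and -0.17 to 0.26 in saline mice (difference 0.18 ± 0.10, adjusted p = 0.213). Col6a6, another alternative chain, had 0.34, 0.12, 0.05, 0.33 and 0.07 in isotype mice and -0.17 to 0.12 in saline mice (difference 0.19 ± 0.09, adjusted p = 0.109). Col6a4 had -0.10, -0.41, -0.08, 0.22 and -0.33 in isotype mice and -0.12 to 0.14 in saline mice (difference -0.13 ± 0.10, adjusted p = 0.348). Col28a1, a beaded filament relative of these chains, differed by -0.08 and did not pass.

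The other genes that rose belong to small families. Col8a1, a short-chain collagen of vessel walls, had 0.26, 0.55, 0.53, 0.27 and 0.21 in isotype mice and -0.17 to 0.11 in saline mice, with a difference of 0.36 ± 0.07 (limma, adjusted p = 0.000682). Col8a2, which codes for the other collagen VIII chain, was -0.20 and Col10a1, known from growth plate cartilage, was -0.15 in isotype minus saline, neither past the test. Col15a1, a multiplexin that links basement membranes to the matrix under them, was higher by 0.38 ± 0.08 (adjusted p = 0.000845), with isotype mice at 0.22 to 0.61 and saline mice at -0.14 to 0.15. Col18a1, the multiplexin from which endostatin is cut, differed by 0.09 and did not pass.

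Of the 6 collagen IV genes, 3 fell, and they are the chains of the alveolar network. Col4a5 had relative levels of -0.51, -0.52, -0.20, -0.64 and -0.47 in isotype mice and of -0.18 to 0.13, with a median of 0.03, in saline mice. Its groups did not overlap, and it fell by 0.47 log2 units, with a standard error of 0.08 (limma, adjusted p = 0.000107). Col4a4 had -0.28, -0.35, -0.20, -0.30 and -0.33 in isotype mice and -0.07 to 0.08, with a median of -0.00, in saline mice. It fell by 0.29, with a standard error of 0.05 and no overlap (adjusted p = 5.65e-05). Col4a3 had -0.50, -0.49, -0.19, -0.52 and -0.31 in isotype mice and -0.25 to 0.21, with a median of 0.02, in saline mice. It fell by 0.40, with a standard error of 0.09 (adjusted p = 0.00149), although isotype mouse 3 lay inside the saline range. Col4a1 and Col4a2, which code for the chains of ordinary basement membranes, did not pass, and neither did Col4a6. Col4a1 had 0.14, 0.01, 0.10, 0.13 and 0.29 in isotype mice and -0.34 to 0.29 in saline mice (difference 0.15 ± 0.09, adjusted p = 0.262). Col4a2 had 0.01, -0.06, 0.09, -0.29 and 0.15 in isotype mice and -0.30 to 0.26 in saline mice (difference -0.02 ± 0.10, adjusted p = 0.909). Col4a6, a chain that pairs with Col4a5 in other tissues, had 0.01, -0.08, 0.01, 0.16 and -0.39 in isotype mice and -0.04 to 0.04 in saline mice (difference -0.06 ± 0.09, adjusted p = 0.705).

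The largest fall was that of Col12a1, a fibril-associated collagen that coats collagen I fibers. It had relative levels of -1.38, -1.46, -0.89, -1.56 and -1.0 in isotype mice. In saline mice they were -0.59 to 0.45 with a median of 0.08, so no isotype mouse reached the lowest saline mouse. The difference was -1.25 ± 0.17 log2 units (limma, adjusted p = 1.18e-05), and -1.37 to -1.13 when each mouse was left out in turn. The other 8 fibril-associated genes did not pass. Col14a1, a close relative of Col12a1, was at 0.24, 0.54, -0.17, 0.23 and 0.41 in isotype mice and at -0.18 to 0.16 in saline mice, with a difference of 0.25 ± 0.12 (adjusted p = 0.125). The differences of the rest were 0.02 for Col9a1, -0.01 for Col9a2, 0.04 for Col9a3, -0.07 for Col16a1, -0.04 for Col19a1, -0.13 for Col20a1 and -0.01 for Col22a1.

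The membrane-spanning family fell in part. Col13a1, which takes part in cell adhesion, had -0.31, -0.40, -0.13, -0.25 and -0.41 in isotype mice and -0.03 to 0.05 in saline mice, and it fell by 0.30 with a standard error of 0.06 (limma, adjusted p = 0.000503). Col23a1 had -0.30, -0.07, -0.07, -0.25 and -0.23 in isotype mice and -0.07 to 0.07 in saline mice. Its fall of 0.18 (standard error 0.06, adjusted p = 0.0201) did not pass once isotype mouse 1 was left out (-0.15, adjusted p = 0.0625) or once isotype mouse 1-2 was left out (-0.17, adjusted p = 0.0577). Col17a1, the hemidesmosome collagen of basal cells, was -0.21 and Col25a1, known from neurons, was -0.04, neither past the test. Col7a1, the anchoring fibril collagen, was -0.05 and Col26a1 was -0.12, also not past it.

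**Figure D2:**
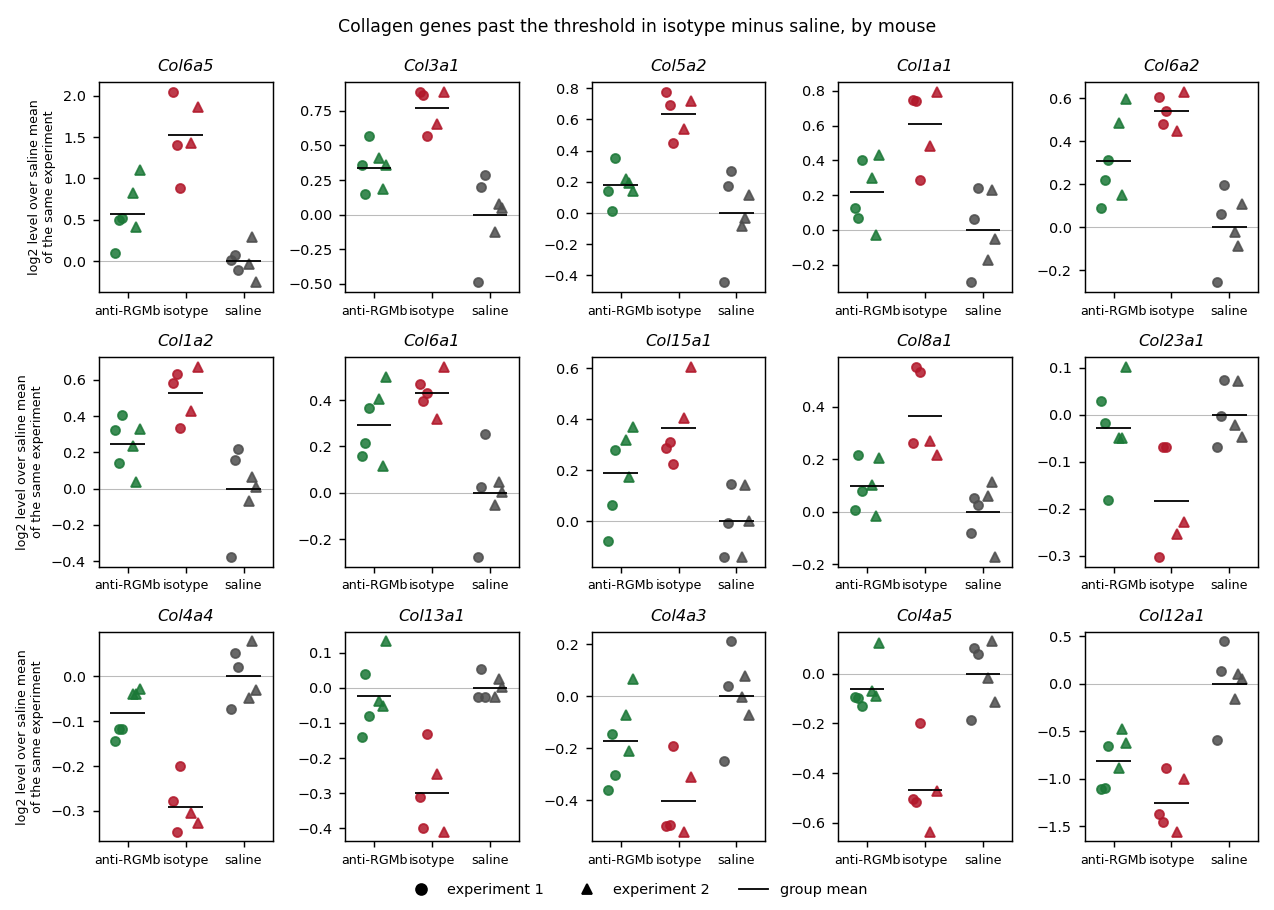
Each panel plots one of the 15 collagen genes past the threshold in isotype minus saline, with the relative log2 level of every mouse on the vertical axis, circles for experiment 1, triangles for experiment 2 and a line at the group mean. Isotype and saline mice are separate in 13 panels and overlap in Col23a1 and Col4a3. The anti-RGMb mice of Col6a5 lie between 0.11 and 1.10 and those of Col12a1 between -1.11 and -0.47.

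Chains of one collagen type can be set against each other within a mouse as the difference of their relative levels, which is given as a description without a test. The chains of collagen I kept nearly the same balance: Col1a1 minus Col1a2 was -0.19 to 0.10 in anti-RGMb mice, -0.05 to 0.16 in isotype mice and -0.10 to 0.17 in saline mice. Those of collagen V did not, since Col5a1 minus Col5a2 was -0.35 to 0.11 in anti-RGMb mice, -0.68 to -0.38 in isotype mice and -0.22 to 0.32 in saline mice. Within collagen IV, Col4a1 minus Col4a5, chains of different trimers, was -0.12 to 0.34 in anti-RGMb mice, 0.30 to 0.77 in isotype mice and -0.15 to 0.21 in saline mice. Col4a3 minus Col4a5, a pair of the alveolar network, was -0.27 to -0.00 in anti-RGMb mice, 0.01 to 0.16 in isotype mice and -0.07 to 0.13 in saline mice. Within collagen VI, Col6a1 minus Col6a3 was 0.22 to 0.56 in anti-RGMb mice, 0.20 to 0.35 in isotype mice and -0.12 to 0.11 in saline mice. The range of Col6a1 minus Col6a3 did not overlap with that of saline mice in either ovalbumin group. The same held for other collagen VI pairs, such as Col6a3 minus Col6a5. It was -0.82 to -0.51 in anti-RGMb mice, -1.77 to -0.74 in isotype mice and -0.27 to 0.38 in saline mice. Col6a1 minus Col6a2 overlapped with saline mice in both ovalbumin groups. The pairs named are a choice among all chain pairs of one type. How often pairs of genes over the whole array do not overlap was not computed.

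**Figure D3:**
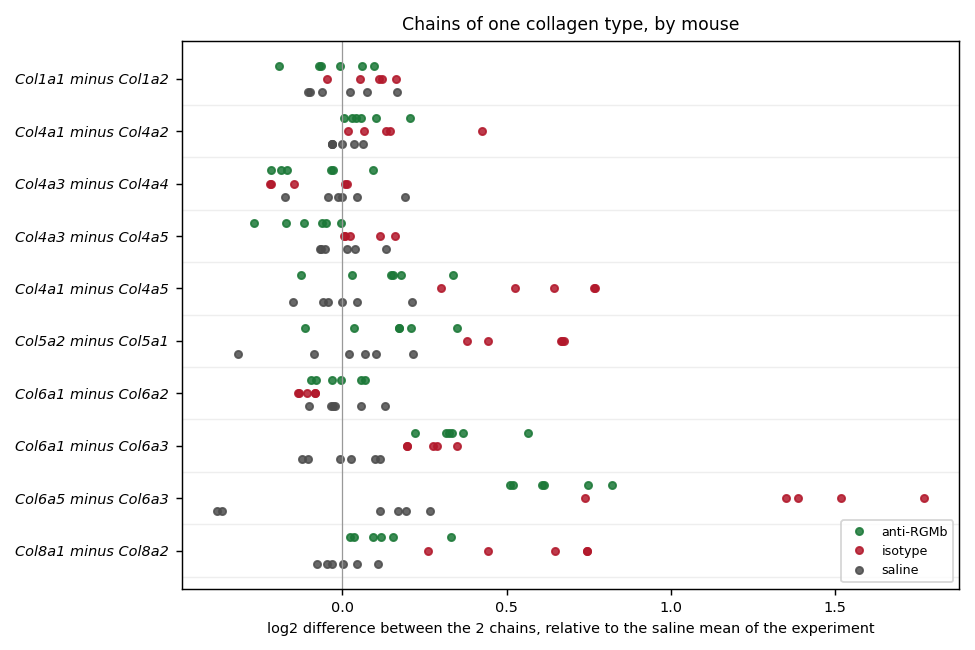
For 10 pairs of chains, the horizontal axis shows the difference of the 2 chains' relative log2 levels in each anti-RGMb, isotype and saline mouse. Col5a2 minus Col5a1, Col4a1 minus Col4a5 and Col8a1 minus Col8a2 lie above the saline range in every isotype mouse. Col6a1 minus Col6a3 and Col6a5 minus Col6a3 do so in every isotype and every anti-RGMb mouse.

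The anti-RGMb and isotype groups were compared to see which collagen genes differed under the antibody in ovalbumin-exposed lung. Of 44 collagen genes, 3 were higher (Col4a4, Col4a5 and Col13a1), 5 were lower (Col1a1, Col3a1, Col5a2, Col6a5 and Col8a1) and 36 did not pass. Over all genes 21.2% passed, with 11.1% higher and 10.0% lower, so the 8 of 44 were near the background. The median difference was 0.09 log2 units over the collagen genes and 0.03 over all genes. This comparison shares its isotype arrays with isotype minus saline, and its values are given beside those and not as independent evidence. The share of all genes whose groups did not overlap was computed for isotype minus saline only. Non-overlap in the other comparisons therefore has no background beside it.

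Of the lower genes, Col6a5 had relative levels of 0.11 to 1.10, with a median of 0.51, in anti-RGMb mice, against 0.88 to 2.04 in isotype mice. The difference was -0.97 ± 0.18 log2 units (limma, adjusted p = 0.000738), and 1 anti-RGMb mouse lay above the lowest isotype mouse. On the second Col6a5 probe set, left out of the fit, anti-RGMb mice ran from 0.34 to 1.75 and isotype mice from 2.1 to 3.76, without overlap. Col5a2 ran from 0.01 to 0.36, with a median of 0.17, in anti-RGMb mice and from 0.45 to 0.78 in isotype mice, without overlap, and differed by -0.46 ± 0.10 (adjusted p = 0.00413). Col3a1 ran from 0.15 to 0.57, with a median of 0.36, in anti-RGMb mice and from 0.57 to 0.89 in isotype mice, barely without overlap. It differed by -0.43 ± 0.12 (adjusted p = 0.0128). Without anti-RGMb mouse 3-2 and isotype mouse 2-2 the Col3a1 difference was -0.40 and no longer passed (adjusted p = 0.0527). Col8a1 ran from -0.02 to 0.22, with a median of 0.09, in anti-RGMb mice and from 0.21 to 0.55 in isotype mice, and differed by -0.26 ± 0.07 (adjusted p = 0.0147). Col1a1 ran from -0.03 to 0.43, with a median of 0.21, in anti-RGMb mice and from 0.29 to 0.79 in isotype mice, and differed by -0.40 ± 0.12 (adjusted p = 0.0219). The Col1a1 call was lost when anti-RGMb mouse 2, anti-RGMb mouse 2-2, isotype mouse 1, isotype mouse 2 or isotype mouse 2-2 was left out, with a highest adjusted p of 0.0741. Its partner Col1a2 ran from 0.04 to 0.41 in anti-RGMb mice and from 0.33 to 0.67 in isotype mice, and its difference of -0.28 ± 0.10 just missed the threshold (adjusted p = 0.0503).

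The higher genes under anti-RGMb were Col4a4 and Col4a5 of the alveolar collagen IV network and Col13a1. Col4a5 ran from -0.13 to 0.13, with a median of -0.09, in anti-RGMb mice and from -0.64 to -0.20 in isotype mice, without overlap, a difference of 0.41 ± 0.08 (limma, adjusted p = 0.00101). Col4a4 ran from -0.14 to -0.03, with a median of -0.08, in anti-RGMb mice and from -0.35 to -0.20 in isotype mice, also without overlap, a difference of 0.21 ± 0.05 (adjusted p = 0.0027). Col13a1 ran from -0.14 to 0.13, with a median of -0.04, in anti-RGMb mice and from -0.41 to -0.13 in isotype mice, a difference of 0.27 ± 0.06 (adjusted p = 0.00228). Col4a3, the remaining chain of that network, ran from -0.36 to 0.07 in anti-RGMb mice and from -0.52 to -0.19 in isotype mice, and its difference of 0.23 ± 0.09 did not pass (adjusted p = 0.0785). Col12a1 ran from -1.11 to -0.47 in anti-RGMb mice and from -1.56 to -0.89 in isotype mice (difference 0.44 ± 0.17, adjusted p = 0.0736). It passed without saline mouse 1 (0.45, adjusted p = 0.038) and without isotype mouse 3 (0.54, adjusted p = 0.0273). Col1a2, Col4a3, Col6a2, Col6a3 and Col23a1 likewise missed the threshold with all mice and passed with some single mouse left out.

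The differences of the remaining collagen VI, IV and V chains in anti-RGMb minus isotype were -0.14 for Col6a1, -0.24 for Col6a2, -0.24 for Col6a3, 0.11 for Col6a4, -0.09 for Col6a6, -0.08 for Col4a1, 0.01 for Col4a2, 0.16 for Col4a6, -0.03 for Col5a1 and 0.13 for Col5a3. None passed the test. Col15a1 was at -0.19 and Col23a1 at 0.16, also short of it. The other 21 genes lay between 0.00 and 0.19.

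Within single experiments fewer collagen genes passed. In isotype minus saline, 8 of 44 rose and 5 fell in experiment 1, where 8.81% of all genes rose and 11.6% fell. In experiment 2 the collagen counts were again 8 and 5, where 13.7% of all genes rose and 15.8% fell. In anti-RGMb minus isotype, 0 collagen genes were higher and 2 lower in experiment 1 in limma, where 3.35% of all genes were higher and 3.13% lower. In experiment 2, 3 collagen genes were higher and 1 lower, where 8.63% of all genes were higher and 11.3% lower. The difference between the experiments was itself tested in limma and was passed by 0.668% of all genes in isotype minus saline, 0.471% in anti-RGMb minus isotype and 0% in anti-RGMb minus saline. It was passed by 0 of 44 collagen genes in each comparison, with a smallest adjusted p of 0.389, which is near that background and shows nothing particular to collagen genes. All 8 genes past the threshold in anti-RGMb minus isotype had the same sign in both experiments, but both experiments entered the fit that picked them.

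**Figure D4:**
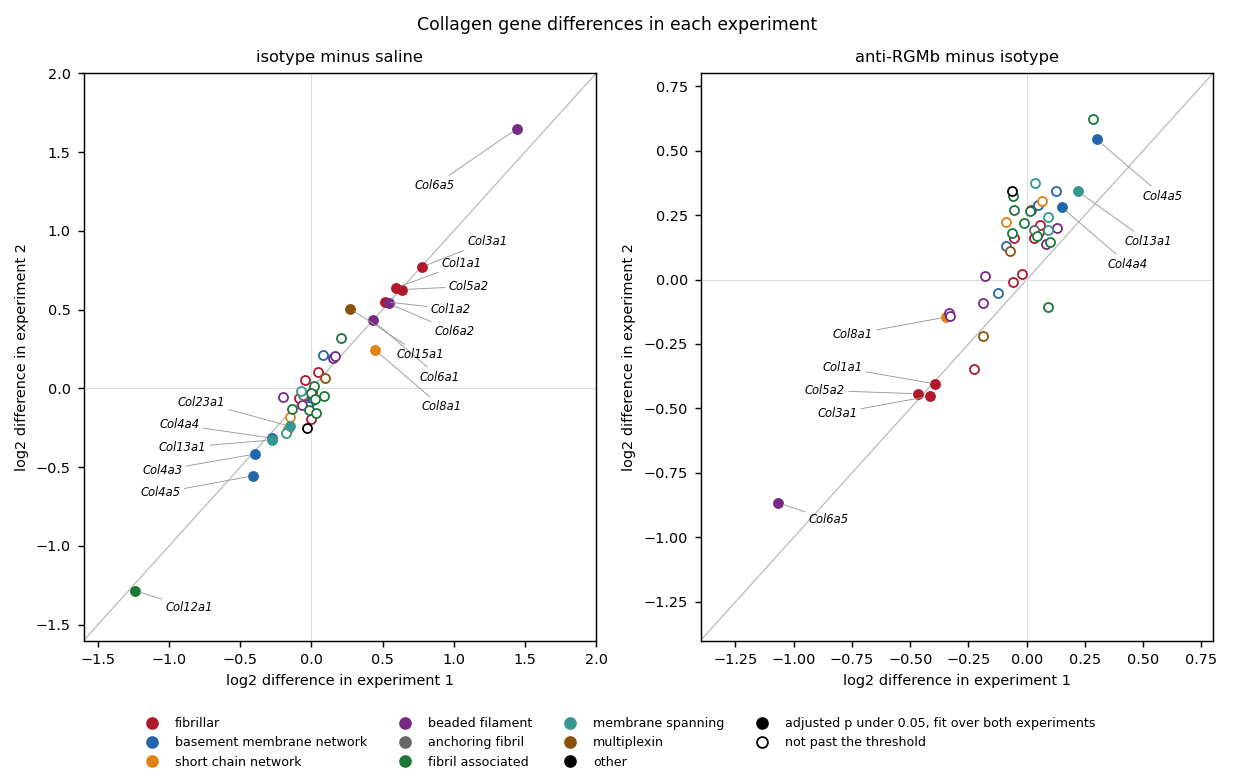
The log2 difference in experiment 2 (vertical axis) is plotted against that in experiment 1 (horizontal axis) for the 44 collagen genes, with filled, named points past the threshold in the fit over both experiments and a line of equal values. The named genes lie near the line in isotype minus saline, and in anti-RGMb minus isotype most open points lie above it.

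The anti-RGMb and saline groups were compared to see which collagen genes still differed from unexposed lung under the antibody. Of 44 collagen genes, 3 were higher (Col6a1, Col6a2 and Col6a5), 1 was lower (Col12a1) and 40 did not pass. Over all genes 6.50% passed, with 4.26% higher and 2.24% lower, and the 4 of 44 were again near that background. The median difference was 0.06 log2 units over the collagen genes and -0.01 over all genes. Col12a1 had relative levels of -1.11 to -0.47, with a median of -0.77, in anti-RGMb mice and of -0.59 to 0.45 in saline mice. The difference was -0.81 ± 0.16 (limma, adjusted p = 0.00367), and it passed whichever mouse was left out, with a highest adjusted p of 0.0129.

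The collagen VI rises over saline were close to the threshold. Col6a1 ran from 0.12 to 0.50 in anti-RGMb mice and from -0.28 to 0.25 in saline mice (difference 0.29 ± 0.08, limma adjusted p = 0.0363). Col6a2 ran from 0.09 to 0.60 in anti-RGMb mice and from -0.26 to 0.20 in saline mice (difference 0.31 ± 0.09, adjusted p = 0.0373). Col6a5 ran from 0.11 to 1.10 in anti-RGMb mice and from -0.25 to 0.29 in saline mice (difference 0.58 ± 0.17, adjusted p = 0.0483). Its second probe set, left out of the fit, ran from 0.34 to 1.75 in anti-RGMb mice and from -0.22 to 0.18 in saline mice, without overlap. Leaving out single mice ended the call in 8 of 17 cases for Col6a1, in 8 of 17 for Col6a2 and in 11 of 17 for Col6a5. Centring each array on its median also ended all 3. For Col3a1 the difference of 0.34 ± 0.11 did not pass (adjusted p = 0.0853), nor did 0.22 for Col1a1, 0.25 for Col1a2, 0.18 for Col5a2 or -0.17 for Col4a3. The saline arrays, with the low saline mouse 1, are the same as in isotype minus saline.

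The genes that make, process and remove collagen were described from lists chosen with earlier results of these data known. Over all genes, 14.6% rose and 21.0% fell in isotype minus saline, and 11.1% were higher and 10.0% lower in anti-RGMb minus isotype. In anti-RGMb minus saline, 4.26% of all genes were higher and 2.24% lower. These shares stand beside the counts of every list here and below. Of 23 measured biosynthesis enzymes and chaperones, 7 rose and 6 fell in isotype minus saline, with a median of -0.00 log2 units. The enzymes that add sugars to collagen split, with Colgalt1 at 0.34 (limma, adjusted p = 1.96e-05) and Colgalt2 at -1.01 (adjusted p = 6.72e-07). The genes of lysyl and prolyl hydroxylation split too. Plod2 fell by 0.90 (adjusted p = 5.93e-05) and P4ha2 by 0.37 (adjusted p = 9.93e-05). P3h4 fell by 0.36 (adjusted p = 0.000394) and P3h3 by 0.22 (adjusted p = 0.015). Plod1 was at 0.39 (adjusted p = 0.000119) and Plod3 at 0.32 (adjusted p = 0.000673). P4hb was at 0.32 (adjusted p = 0.000392) and P4ha3 at 0.28 (adjusted p = 0.0429). Plod1, Plod3, P4hb, P4ha3, P3h3 and P3h4 were named after their values were seen. In anti-RGMb minus isotype, 3 of the 23 were higher and 5 lower, and in anti-RGMb minus saline 0 were higher and 2 lower. Of 12 procollagen processing and cross-linking genes, 3 rose and 3 fell in isotype minus saline. Lox, which cross-links fibers, rose by 0.81 in isotype minus saline (adjusted p = 9.43e-06) and was at -0.53 in anti-RGMb minus isotype (adjusted p = 0.00158). Pcolce2 and Pcolce, enhancers of procollagen trimming, were at -1.21 and -0.38 in isotype minus saline and at 0.92 and 0.28 in anti-RGMb minus isotype, all past the threshold. Loxl1, of the Lox family, was at -0.42 in isotype minus saline and at 0.39 in anti-RGMb minus isotype, also past it. In that list 3 were higher and 1 was lower in anti-RGMb minus isotype, and 0 passed in anti-RGMb minus saline.

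Genes of fiber-binding proteins and of collagen receptors fell more often than they rose in isotype lungs. Of 15 fibril partners, 4 rose and 8 fell, with a median of -0.29 log2 units, where 14.6% of all genes rose and 21.0% fell. Fibronectin (Fn1) rose by 1.01 (limma, adjusted p = 1.68e-05) and Emilin1 by 0.55 (adjusted p = 3.04e-06), while tenascin X (Tnxb) fell by 0.96 (adjusted p = 1.37e-06) and Prelp by 0.58 (adjusted p = 7.11e-07). In anti-RGMb minus isotype, 5 of the 15 were higher and 2 lower, and in anti-RGMb minus saline 2 were higher and 1 lower. Of 11 collagen receptors and uptake genes, 2 rose, 7 fell and the median was -0.20. Both risers are known from leukocytes: the mannose receptor Mrc1 at 1.63 (adjusted p = 8.58e-10) and the inhibitory collagen receptor Lair1 at 1.13 (adjusted p = 5.71e-06). The mesenchymal receptors Ddr2 and Itga1 fell by 0.52 (adjusted p = 2.11e-05) and 0.54 (adjusted p = 0.000105). In anti-RGMb minus isotype, 6 of the 11 were higher and 2 lower, and in anti-RGMb minus saline 2 were higher and 0 lower.

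Genes of collagen-degrading enzymes and their inhibitors were mostly higher in isotype lungs. Of 16, 11 rose and 1 fell in isotype minus saline, with a median of 0.66 log2 units, where 14.6% of all genes rose and 21.0% fell. The macrophage elastase Mmp12 rose by 4.21 (limma, adjusted p = 2.33e-10), the metalloproteinase inhibitor Timp1 by 3.18 (adjusted p = 3.54e-11), and the lysosomal proteases Ctss by 1.63 (adjusted p = 8.52e-10) and Ctsb by 1.06 (adjusted p = 1.56e-09). In anti-RGMb minus isotype, 1 was higher and 10 were lower, with a median of -0.43 and with Timp1 at -1.67 and Mmp12 at -1.44. In anti-RGMb minus saline 6 were higher and 0 lower.

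Basement membrane genes other than collagens fell in isotype lungs where they passed the test. Of 17, 0 rose and 9 fell in isotype minus saline (median -0.27 log2 units), and 7 were higher and 0 lower in anti-RGMb minus isotype (median 0.15). In the same comparisons 21.0% of all genes fell and 11.1% were higher. Examples are the laminin chain Lamb2, at -0.40 (limma, adjusted p = 1.38e-05) and 0.34 (adjusted p = 0.000227), and the integrin ligand Npnt, at -0.69 (adjusted p = 1.91e-05) and 0.56 (adjusted p = 0.00045), in isotype minus saline and anti-RGMb minus isotype. Tinagl1, with the smallest p of the list, was at -0.48 (adjusted p = 1.04e-06) and 0.51 (adjusted p = 5.04e-06) in these comparisons. In anti-RGMb minus saline 0 of the 17 passed. Of 17 genes listed as TGF-beta ligands, receptors and profibrotic factors, 5 rose and 10 fell in isotype minus saline (median -0.29). Inhba rose by 2.15 (adjusted p = 1.31e-07) and Tgfb1 by 0.55 (adjusted p = 5.51e-07), while Tgfb2 was at -0.83 (adjusted p = 1.51e-07) and the latent TGF-beta binding gene Ltbp4 at -1.5 (adjusted p = 5.11e-11). In anti-RGMb minus isotype 7 were higher and 5 lower, and in anti-RGMb minus saline 1 was higher and 4 were lower.

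**Figure D5:**
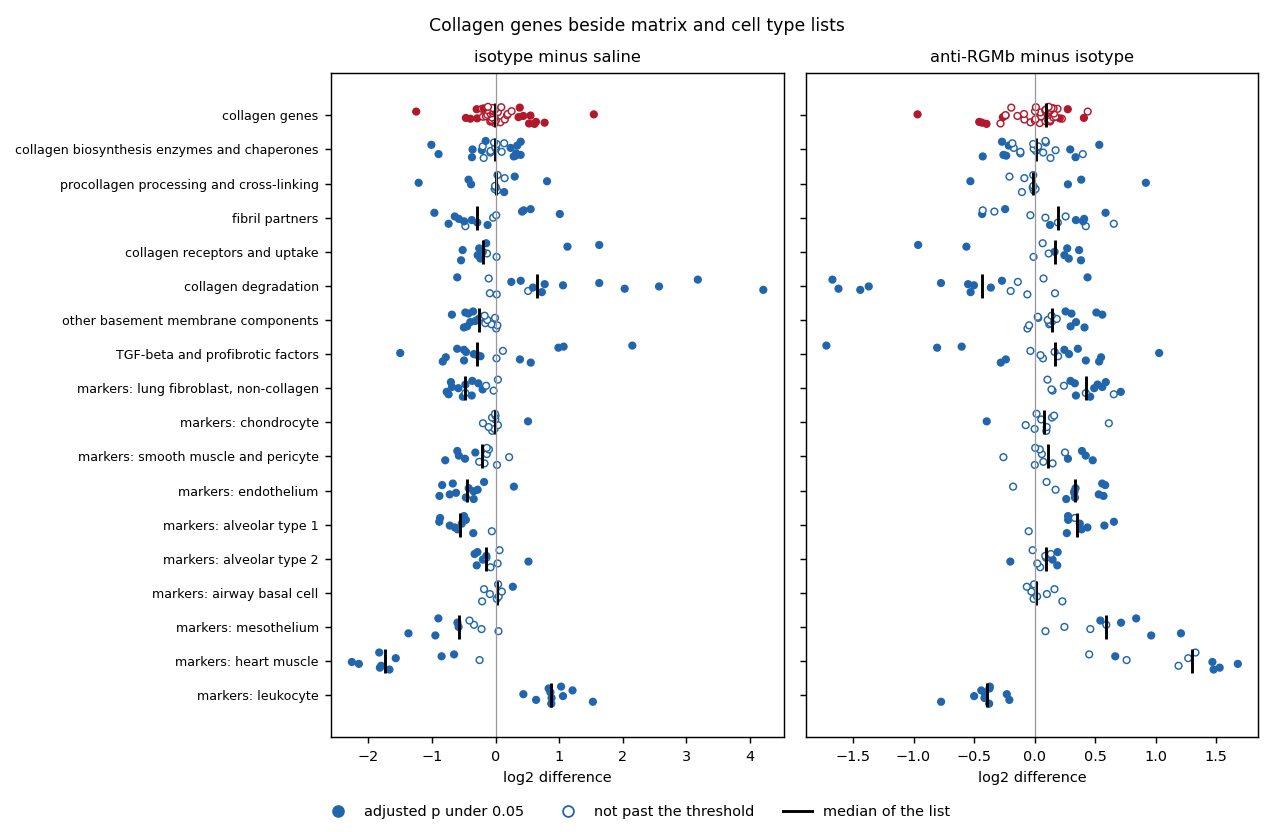
Each point is a gene's log2 difference (horizontal axis) in isotype minus saline and anti-RGMb minus isotype, for the collagen genes and 17 lists of matrix genes and cell type markers, filled where adjusted p was under 0.05, with a bar at the list median. The medians are near 0 for collagen genes, at 0.66 for degradation and at -0.47 for fibroblast markers in isotype minus saline.

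Markers of fibroblasts fell in isotype lungs, in which Col1a1, Col1a2, Col3a1 and Col5a2 were higher. Where 14.6% of all genes rose and 21.0% fell in isotype minus saline, 0 of 15 non-collagen fibroblast markers rose and 11 fell (median -0.47 log2 units). Their summed level was 94.9% to 98.9% of the saline mean in anti-RGMb mice, 70.0% to 89.0% in isotype mice and 97.2% to 103.2% in saline mice. The fibroblast factor Tcf21 was at -0.77 in isotype minus saline (limma, adjusted p = 1.54e-05), and 9 of the 15 were higher and 0 lower in anti-RGMb minus isotype. Of 12 smooth muscle and pericyte markers, 0 rose and 5 fell in isotype minus saline, with a summed level of 78.3% to 99.4% of the saline mean in anti-RGMb mice, 77.0% to 95.6% in isotype mice and 92.6% to 106.6% in saline mice. Of 10 leukocyte markers all 10 rose, and their sum was 125.0% to 157.4% in anti-RGMb mice, 169.6% to 196.9% in isotype mice and 95.9% to 103.0% in saline mice. All 10 were lower in anti-RGMb minus isotype and all 10 higher in anti-RGMb minus saline. The part of these cell type changes in the collagen differences was not tested.

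Markers of cells next to the alveolar basement membrane fell with Col4a3, Col4a4 and Col4a5. In isotype minus saline 14.6% of all genes rose and 21.0% fell, and in anti-RGMb minus isotype 11.1% were higher and 10.0% lower. Of 10 alveolar type 1 markers 0 rose and 9 fell in isotype minus saline (median -0.56 log2 units), and 8 were higher and 0 lower in anti-RGMb minus isotype. Their summed level was 84.9% to 93.2% of the saline mean in anti-RGMb mice, 66.4% to 81.3% in isotype mice and 93.3% to 104.9% in saline mice. Of 12 endothelial markers 1 rose and 11 fell, and their sum was 83.6% to 95.6% in anti-RGMb mice, 67.8% to 82.7% in isotype mice and 95.6% to 103.2% in saline mice. Alveolar type 2 markers gave 1 rise and 5 falls of 10 and a sum of 94.6% to 101.7% in anti-RGMb mice, 92.2% to 98.9% in isotype mice and 94.3% to 105.0% in saline mice. Of 9 mesothelial markers 0 rose and 5 fell, with sums of 68.9% to 129.2% in anti-RGMb mice, 51.9% to 66.3% in isotype mice and 83.9% to 111.9% in saline mice. Of 10 heart muscle markers 0 rose and 9 fell (median -1.74), with sums of 45.6% to 153.5% in anti-RGMb mice, 28.3% to 68.8% in isotype mice and 61.1% to 175.0% in saline mice. Chondrocyte and basal cell markers gave 1 rise each (Sox9 and Aqp3) and 0 falls, of 10 and of 8. Whether any of these shifts had a part in the collagen IV or other collagen differences was not tested.

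Upstream sequences are shown for genes that rose (Col1a2, Col3a1 and Col6a5), for genes of the alveolar network that fell (Col4a4 and Col4a5) and for the collagen IV pair that did not pass (Col4a1 and Col4a2). They are the 250 bases before a RefSeq start of the gene on GRCm38.p6, 5′ to 3′ on the gene's strand. Capitals mark the motif CCAAT, the motif TATAAA or the motif GGGCGG on either strand. That start is not always the outer end of the gene. The Col6a5 window lies inside the annotated gene, and the windows of Col4a1, Col4a4 and Col4a5 run partly into their own annotated genes.
Col1a2 upstream of its start, chr6:4505368-4505617, plus strand: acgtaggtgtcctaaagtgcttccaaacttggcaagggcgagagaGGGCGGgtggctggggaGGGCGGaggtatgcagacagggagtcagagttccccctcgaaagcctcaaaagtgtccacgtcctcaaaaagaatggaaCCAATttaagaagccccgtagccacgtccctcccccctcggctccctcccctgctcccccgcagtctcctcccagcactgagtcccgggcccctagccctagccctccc
Col3a1 upstream of its start, chr1:45311288-45311537, plus strand: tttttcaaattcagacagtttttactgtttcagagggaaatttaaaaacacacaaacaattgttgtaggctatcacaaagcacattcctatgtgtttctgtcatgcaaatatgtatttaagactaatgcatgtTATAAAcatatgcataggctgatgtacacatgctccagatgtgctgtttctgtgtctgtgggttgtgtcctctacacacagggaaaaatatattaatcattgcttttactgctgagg
Col6a5 upstream of its start, chr9:105960644-105960893, minus strand: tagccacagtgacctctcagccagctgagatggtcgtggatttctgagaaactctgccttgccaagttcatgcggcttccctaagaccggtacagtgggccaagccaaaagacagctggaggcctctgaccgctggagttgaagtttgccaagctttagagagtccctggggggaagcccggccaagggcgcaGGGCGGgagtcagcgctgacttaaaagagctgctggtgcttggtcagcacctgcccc
Col4a4 upstream of its start, chr1:82586850-82587099, minus strand: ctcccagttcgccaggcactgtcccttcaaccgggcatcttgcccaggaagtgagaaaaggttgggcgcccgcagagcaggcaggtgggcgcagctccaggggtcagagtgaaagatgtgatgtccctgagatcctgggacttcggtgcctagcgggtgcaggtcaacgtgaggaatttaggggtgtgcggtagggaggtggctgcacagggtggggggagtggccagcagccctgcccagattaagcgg
Col4a5 upstream of its start, chrX:141475169-141475418, plus strand: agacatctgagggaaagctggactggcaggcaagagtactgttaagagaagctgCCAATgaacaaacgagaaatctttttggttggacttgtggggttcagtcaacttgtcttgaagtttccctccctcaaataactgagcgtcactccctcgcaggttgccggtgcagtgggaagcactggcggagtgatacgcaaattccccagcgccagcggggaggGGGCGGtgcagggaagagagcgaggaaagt
Col4a1 upstream of its start, chr8:11312827-11313076, minus strand: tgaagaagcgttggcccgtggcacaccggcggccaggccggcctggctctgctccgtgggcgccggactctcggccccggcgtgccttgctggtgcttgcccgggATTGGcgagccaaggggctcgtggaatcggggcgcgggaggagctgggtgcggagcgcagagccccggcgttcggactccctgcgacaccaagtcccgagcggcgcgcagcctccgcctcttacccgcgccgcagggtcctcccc
Col4a2 upstream of its start, chr8:11312555-11312804, plus strand: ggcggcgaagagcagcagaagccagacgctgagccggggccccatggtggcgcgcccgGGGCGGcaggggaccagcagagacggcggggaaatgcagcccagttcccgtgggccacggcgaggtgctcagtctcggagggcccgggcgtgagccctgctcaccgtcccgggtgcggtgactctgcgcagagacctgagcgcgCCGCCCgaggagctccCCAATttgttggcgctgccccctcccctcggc
The start sites of Col4a1 and Col4a2 lie 21 bases apart, head to head on chromosome 8, so their windows run into each other's genes. Those of Col4a5 and Col4a6 lie 1343 bases apart on chromosome X, and only Col4a5 of that pair passed the test. The Col4a4 window also overlaps the annotated Col4a3 gene on chromosome 1, and both genes fell in isotype minus saline. Of the 44 collagen genes, 35 had an entry in the RefSeq promoter table, and Col1a1, Col2a1, Col4a3, Col5a2, Col9a3, Col12a1, Col14a1, Col22a1 and Col26a1 had none. CCAAT stood in 13 of the 35 (37.1%) and in 38.8% of the 15482 array genes with an entry. TATAAA stood in 5 of the 35 (14.3%) and in 12.5%, and GGGCGG in 21 of the 35 (60.0%) and in 49.5%. Col3a1 held TATAAA and neither other motif, Col1a2 held CCAAT and GGGCGG, and Col4a4 held none of the 3. A match is a description of the letters and not a binding site.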

How the data were processed

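The authors deposited 1 linear intensity per probe set and array, computed with RMA, which corrects background, normalizes arrays and sums up a probe set's probes. RMA is named by the submitters' processing notes, and no version of it is given in the sources used. Total RNA was labelled with biotin, per the labels. The log2 of each intensity was taken with no added constant. Of 24679 probe sets, 21354 had 1 gene symbol in the platform annotation, 1275 had several and 2050 had none. The brightest probe set over all arrays stood for each of 19751 genes, and only Col6a5 and Col6a6 among the collagen genes had more than 1. No 2 arrays held identical values. No array served 2 mice, and the number of arrays limits the precision.

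A mean per group and a fixed term for the experiment were fitted to every gene with limma 3.58.1 (R 4.3.3, eBayes), 2-sided, with Benjamini-Hochberg adjustment over all 19751 genes and a threshold of 0.05. Within-experiment values and the difference between experiments came from a fit of 6 means, 1 for each group in each experiment. Tested on simulated data of 19751 genes, the fit recovered 87% of changes of 0.5 log2 units and 99% of those of 1 unit in isotype minus saline, with 18 false among 204 calls. For anti-RGMb minus isotype it recovered 78% and 100%, with 7 false among 185 calls. The simulation changed 200 genes and drew independent noise, whereas 35.6% of all genes passed in isotype minus saline. These rates need not hold for the real arrays.

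Values after ± are standard errors. Members were grouped into 9 families. Every member is named. Levels of each isotype mouse are given for the 8 smallest p-values in isotype minus saline and the 8 smallest in anti-RGMb minus isotype. They are also given for the chains of collagens I, III, IV, V and VI. Levels of saline and anti-RGMb mice, where given, are ranges, some with a median. Of each of the 17 other lists, up to 4 genes were named from among those with the smallest p. The biosynthesis list is an exception, with further genes named after their values were seen. The members are defined by symbol alone, but this set and the lists were picked for description with earlier results of these data known. Some genes planned for the lists are not analysed here, and Dpt, Lum, Dcn, Npnt and Pepd each stand in 2 lists. Mice of different groups that share a number within an experiment were not taken as paired, since across 16 pairs of same-numbered mice the residual correlation was -0.60 to 0.30 and above 0.1 in 3.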

Additional observations from a re-analysis of the deposited data

Results flagged for a closer look

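In 132 sets of relative levels (44 collagen genes in 3 groups), 17 had 1 mouse far from the others of its group by Dixon's test at its 95% critical value, which flags about 1 set in 20 by chance. Of these, 15 were anti-RGMb mouse 3-2, the array whose dimmer 50% of genes had a median of 0.168. It stood at 0.37 for Col2a1, 0.13 for Col4a5, 0.25 for Col5a1, 0.41 for Col7a1, 0.69 for Col9a3, 0.32 for Col11a1 and 0.42 for Col11a2. It stood at 0.35 for Col16a1, 0.40 for Col17a1, 0.43 for Col19a1, 0.44 for Col22a1, 0.27 for Col24a1, 0.48 for Col25a1, 0.33 for Col26a1 and 0.40 for Col27a1. The other anti-RGMb mice lay between -0.03 and 0.13 for Col9a3 and between -0.13 and -0.07 for Col4a5. Of these 15 genes, Col4a5 alone passed in anti-RGMb minus isotype, and it passed without that mouse and isotype mouse 2-2 as well (0.37, adjusted p = 0.00482).

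Isotype mouse 2-2 stood at -0.40 for Col5a3, with the other isotype mice at -0.06 to 0.03, and its dimmer 50% of genes had a median of -0.137. Saline mouse 2-2 stood at 0.18 for Col9a2, with the other saline mice at -0.10 to 0.00. The part of the array shift in these values was not tested.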

How the results depend on the processing

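Beside leaving out each of 17 mice, 14 other settings were tried, 1 of them chosen after seeing the data (anti-RGMb mouse 3-2 and isotype mouse 2-2 left out together). No collagen difference past the threshold changed its sign. Without a term for the experiment, 0 collagen genes passed in every comparison and direction. In experiment 1 alone anti-RGMb minus isotype gave 0 higher and 2 lower and anti-RGMb minus saline 0 higher. In experiment 2 alone anti-RGMb minus isotype gave 1 lower, and anti-RGMb minus saline 0 higher and 0 lower. The 3 genes higher in anti-RGMb minus saline became 0 with arrays centred on their median and with the 2 arrays left out, and array weights gave 2 lower. Leaving out 1 mouse gave 9 to 10 higher and 5 to 7 lower in isotype minus saline, 3 to 6 higher and 4 to 7 lower in anti-RGMb minus isotype, and 0 to 3 higher and 1 lower in anti-RGMb minus saline. With the replicate block (mouse number within experiment), the counts were 9 higher and 5 lower, 4 higher and 6 lower, and 2 higher and 1 lower in the same comparisons. Under that block Col12a1 (0.43, adjusted p = 0.013) and Col6a2 (-0.27, adjusted p = 0.0389) passed in anti-RGMb minus isotype, and Col6a5 in anti-RGMb minus saline (0.58, adjusted p = 0.10) and Col23a1 in isotype minus saline (-0.18, adjusted p = 0.0581) did not. Of all genes past the threshold in anti-RGMb minus saline, 65.6% were higher, and 54.6% with arrays centred. Signal over background was not given, so how dim probe sets limit the smaller differences is unknown.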
